A study of Mus musculus with 2 samples.

Results

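Resident macrophages of the uninjured heart, named after Lyve1, were taken from the sham library as single cells. Lyve1 is 1 of several genes used to find them and was not required in each cell. They were selected on measured values. A cell had to have at most 25% of its UMIs from mitochondrially encoded genes and at least 0.4% from Ctss, Cd68, Csf1r, C1qa, C1qb and C1qc. It had to hold at least 3 UMIs summed over Lyve1, Folr2, Cbr2, Cd163 and F13a1, in any mix of these genes. At most 2 UMIs were allowed in the sum of Mki67, Top2a, Cenpf, Birc5 and Ube2c, and less than 1% of UMIs in Dcn, Col1a2 and Col3a1 together. A UMI (unique molecular identifier) marks 1 captured mRNA molecule. The rule found 1134 of the 6337 sham cells, out of 14892 cells in the series, and these cells are called the members below.

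The study used Drop-seq, which barcodes the mRNA of single cells in droplets, on hearts of wild-type male C57BL6/J mice of 8 to 10 weeks of age. Hearts were collected 14 days after sham surgery, in which the coronary suture was not tightened, or after the left anterior descending artery had been tied off to cause a myocardial infarction (MI). The sham library pooled 4 hearts and the MI library came from 1 heart. Each condition is thus 1 library, no difference has a replicate check, and no p-value is given. All intervals are 95% intervals that cover counting error only.

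Tissue-resident macrophages are seeded in the heart before birth and in part renew themselves there, while other cardiac macrophages derive from blood monocytes. Lyve1 encodes a hyaluronan receptor that is also made by lymphatic endothelium, Folr2 a folate receptor, Cd163 the scavenger receptor for hemoglobin bound to haptoglobin, Cbr2 a carbonyl reductase and F13a1 the transglutaminase subunit of factor XIII. Timd4 encodes a receptor for phosphatidylserine on dying cells, and Retnla a small secreted protein made by alternatively activated macrophages. Ccr2, a chemokine receptor, is commonly used to separate monocyte-derived from resident cells. The MHC class II genes, whose products present antigen to CD4 T cells, are used beside it to divide cardiac macrophages further. In these cells PU.1 and MAF are well known transcription factors of the macrophage lineage.

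The upstream sequences of 4 genes that set the members apart are shown because the letters of a PU.1 core (GAGGAA) and of a MAF core (TGCTGA) can be looked for there. F13a1, Cd163 and Folr2 belong to the rule and Timd4 does not. Each sequence is the 250 bases before the RefSeq start, on the gene's own strand, from GRCm38.p6, with matches on either strand in capitals. The 2 motifs do not overlap in any of them.
F13a1, chr13:37050245-37050494, minus strand: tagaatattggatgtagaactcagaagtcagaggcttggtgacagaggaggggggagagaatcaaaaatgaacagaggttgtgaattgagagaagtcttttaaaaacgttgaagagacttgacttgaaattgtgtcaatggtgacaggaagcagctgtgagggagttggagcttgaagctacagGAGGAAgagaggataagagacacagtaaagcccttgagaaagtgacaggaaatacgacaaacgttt
Cd163, chr6:124304401-124304650, plus strand: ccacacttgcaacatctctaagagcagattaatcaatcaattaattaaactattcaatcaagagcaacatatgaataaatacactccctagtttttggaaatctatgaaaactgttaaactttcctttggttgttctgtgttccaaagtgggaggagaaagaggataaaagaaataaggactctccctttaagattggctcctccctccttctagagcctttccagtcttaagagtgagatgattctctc
Folr2, chr7:101857191-101857440, minus strand: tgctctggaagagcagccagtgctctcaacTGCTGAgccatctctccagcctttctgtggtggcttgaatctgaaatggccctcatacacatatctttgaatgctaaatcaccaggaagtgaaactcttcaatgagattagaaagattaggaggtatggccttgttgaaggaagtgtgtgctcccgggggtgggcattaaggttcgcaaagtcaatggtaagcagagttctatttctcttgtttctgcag
Timd4, chr11:46810549-46810798, plus strand: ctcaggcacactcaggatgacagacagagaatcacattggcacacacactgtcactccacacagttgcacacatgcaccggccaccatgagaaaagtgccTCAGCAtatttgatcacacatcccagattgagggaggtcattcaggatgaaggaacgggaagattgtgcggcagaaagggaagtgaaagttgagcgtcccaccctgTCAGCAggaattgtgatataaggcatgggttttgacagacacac
The F13a1 window held 1 PU.1 core, the Folr2 window 1 MAF core and the Timd4 window 2 MAF cores on the other strand, while the Cd163 window held neither. Of 32851 RefSeq promoter windows of this length, 23.3% held a PU.1 core and 16.1% a MAF core on either strand. The windows before Cbr2 and Retnla run further into the GENCODE gene and are not printed. Each held 1 PU.1 core, and that of Retnla also 1 MAF core. Folr2 and F13a1 have a second RefSeq start each, with 1 MAF core and neither motif, respectively. These matches are descriptions of letters only.

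The sham library held 11307405 UMIs, with a median of 1424 per cell, and the MI library 33275336, with a median of 2466 per cell. The members had a median of 1430 UMIs (710 to 8252) and 836.5 genes per cell. Of their barcodes 1 also occurred in the MI library, where 2 of the cells under the same rule shared a barcode with sham. Scrublet called 85 members doublets (7.50%), against 5.37% of all sham cells, 9.52% of sham macrophages without resident genes and 0.62% of the MI cells under the rule. Markers of other cell types were low but not absent in the members. Blood endothelial markers (10 of 10 detected) summed to 1346 CPM, the UMIs of a gene or list per 1000000 UMIs of the group, and 9.61% of members held at least 3 such UMIs. Fibroblast markers outside the rule (7 of 7) summed to 672 CPM and cardiomyocyte markers (9 of 9) to 223 CPM. T or NK cell markers summed to 9.22 CPM, with Cd3d, Cd3g, Klrb1c and Ncr1 at 0, B cell markers to 7.60 CPM and mast cell markers to 2.71 CPM. Dendritic cell markers summed to 66.2 CPM and neutrophil markers to 41.2 CPM, with S100a8 at 0. Lymphatic endothelial markers, which matter because lymphatic cells also make Lyve1, summed to 47.7 CPM, and 2 members held 52 of the 88 UMIs.

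Among sham cells that met every other term of the rule, called macrophage-gated cells, the members were 1134 of 1453, or 78.0% (Clopper-Pearson interval 75.8 to 80.2%). Another 147 cells (10.1%) had no UMI of the 5 resident genes, and 172 had 1 or 2. The threshold fell within a continuous range. The 69 members with exactly 3 resident UMIs had 28572 CPM of MHC class II transcripts, 542 CPM of Ccr2 and 2897 CPM of Pf4, and the 84 cells just outside with exactly 2 had 29019, 750 and 2672 CPM. The count depended on depth. After each cell was thinned to 500 UMIs, 806 of 1499 gated cells (53.8%) met the rule.

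All 5 resident genes of the rule are annotated as protein-coding (GRCm38, GENCODE). Lyve1 lies at chr7:110850607-110863239, Folr2 at chr7:101839988-101857194, Cbr2 at chr11:120729489-120732114, Cd163 at chr6:124304656-124330527 and F13a1 at chr13:36867178-37050244. Retnla lies at chr16:48842551-48844461, Timd4 at chr11:46810800-46844332 and Ccr2 at chr9:124101950-124113557. The 5 resident genes were unequal in the members. F13a1 was found in 93.8% of members and gave 36.7% of the UMIs of the 5 genes. Cbr2 was found in 79.3%, Lyve1 in 70.9%, Folr2 in 64.4% and Cd163 in 60.9% of members. A cell carried 0 to 35 UMIs of Lyve1 with a median of 2, and 0 to 30 UMIs of F13a1 with a median of 4. The ranges were 0 to 15 for Cbr2 (median 2), 0 to 22 for Cd163 (median 1) and 0 to 9 for Folr2 (median 1). Most members thus held several of the genes, and no single gene was present in all of them. All 5 genes were present in 316 members, and 24 members qualified through F13a1 alone. Lyve1 itself was not detected in 330 members, at a median depth of 1299 UMIs against 1494.5 in those with it. Summed levels were 3151 CPM for F13a1, 1887 for Lyve1, 1361 for Cbr2, 1354 for Cd163 and 841.5 for Folr2. Drop-seq tags each molecule once at its 3′ end, so these counts need no division by gene length. For the background of free RNA, Lyve1 was found in 2.99% of 67 sham lymphocytes (median depth 1351 UMIs). After thinning to 500 UMIs F13a1 was found in 71.8% of members and 2.99% of the lymphocytes.

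**Figure D1:**
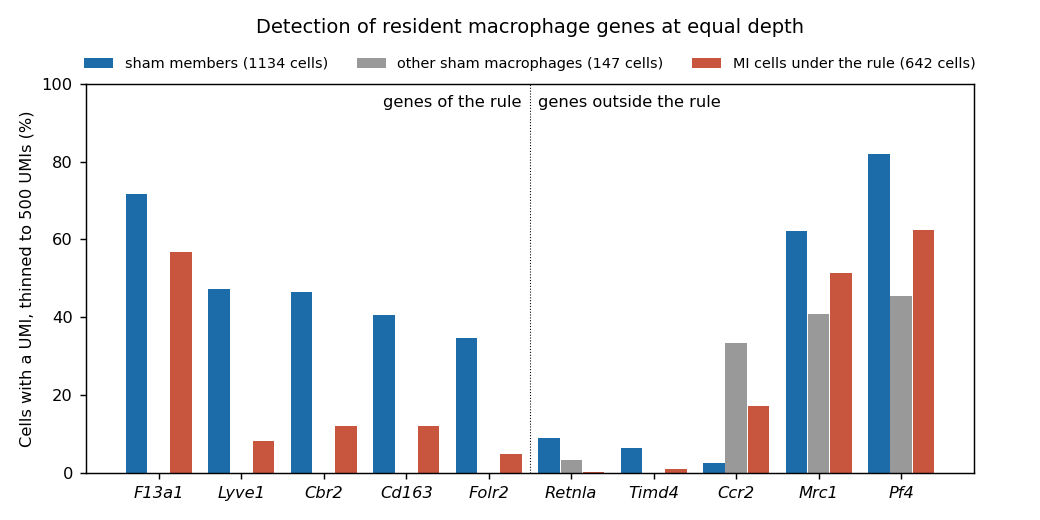
Share of cells (vertical axis, %) with at least 1 UMI of each gene after thinning every cell to 500 UMIs, in the 1134 members, the 147 other sham macrophages and the 642 MI cells under the rule. The 5 genes left of the dotted line belong to the rule. Ccr2 is found in 2.47% of members and 33.3% of other sham macrophages, and Lyve1 in 47.2% of members and 8.10% of the MI cells (27.2% of those found without F13a1, which are not drawn).

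The most abundant transcripts of the members, after mitochondrial, ribosomal protein and rule genes were set aside, included Malat1, Actb, Tmsb4x, B2m and Fth1, which most cells share. They also included Apoe (14372 CPM), the lipid carrier protein, Lyz2 (10310.1 CPM), the lysozyme of myeloid cells, and Sepp1 (5739.9 CPM), the secreted selenium carrier. Pf4, a platelet-type chemokine that tissue macrophages also make, stood at 4584 CPM and Cd74, the MHC class II invariant chain, at 4251 CPM. Mrc1, the mannose receptor, was found in 89.5% of members and Pf4 in 96.1%. All 10 pan-macrophage markers were detected, among them Lyz2, Tyrobp, Fcer1g and Emr1 (the F4/80 gene, Adgre1).

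Of the 5 markers given for these cells, Retnla was the 1 not used by the rule, and it did not mark the members as a whole. Retnla was found in 124 members (10.9%), whose median was 6 UMIs, and the highest cell held 319 of all 2050 UMIs. The 12 highest cells held 48.6% of them. By CPM Retnla was 1112 in the members and 1634 in the other sham macrophages, where 9 of 147 cells carried it and 1 cell held 243 of 365 UMIs. After thinning, the share of cells with it went the other way, 8.91% of members against 3.40%. Members with Retnla had more Lyve1 (3131 against 1718 CPM), Folr2 (1131 against 802 CPM) and Fcna (418 against 157 CPM) than members without it. They had less Il1b, 9.09 against 109.7 CPM, and their median depth was 1536 against 1425 UMIs. MHC class II transcripts stood at 9515 against 11081.5 CPM.

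The members were compared with the 147 other sham macrophages, which lack the resident genes. This asks what else the cells share that the rule did not use. Because both groups were cut from the same cells by measured values, the comparison is a description. Of 6099 genes with a mean of at least 20 CPM and at least 20 UMIs, 463 were at least 2-fold higher in the members (7.59%) and 419 at least 2-fold lower (6.87%), and the median log2 ratio was -0.02. The lists with the most genes higher in the members were the further resident macrophage genes (11 of 14) and the scavenger and lectin receptors (9 of 16). These lists overlap, and Mrc1, Stab1 and Fcna are counted as higher in both. All 8 MHC class II genes and 4 of 5 monocyte markers that passed were lower.

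Further resident macrophage genes outside the rule were mostly higher. Of 14 that passed the filter 11 were at least 2-fold higher and none at least 2-fold lower, and the median log2 ratio of the list was 1.77. Fcna and Vsig4 are among the 11, and their place there was fixed because they were at 0 in the others. Timd4 and Ccl24, at 1 and 2 UMIs in the others, were fixed there in the same way. Timd4 stood at 125 CPM, with 230 UMIs spread over 191 members and at most 3 in a cell, against 1 UMI in the other macrophages (log2 ratio 4.80, 2.31 to 10.11). Gas6, the ligand of the Mertk and Axl receptors for dying cells, was higher by 2.17 (1.67 to 2.72), and Pf4 by 1.79 (1.62 to 1.96). Igf1, the growth factor, was higher by 1.47 (1.01 to 1.97). Mgl2, a galactose-type lectin receptor, was level at 705 and 707 CPM, with a log2 ratio of 0.00 (-0.24 to 0.24). Vsig4, the complement receptor of resident macrophages, had 83 UMIs in the members and 0 in the others. With that 0 set to 3 counts it was 3.35-fold higher, and the lower limit of its log2 ratio was 1.415.

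Of 16 scavenger and lectin receptor genes, 9 were at least 2-fold higher, and the median of the list was 1.16. Fcna and Colec12 are among the 9, and at 0 in the others they could pass the filter only by being higher. Mrc1 (2218 against 940 CPM) had a log2 ratio of 1.24 (1.04 to 1.45) and Stab1, a receptor for modified proteins, 1.84 (1.42 to 2.28). Msr1, the class A scavenger receptor, had 2.29 (1.35 to 3.43). Fcna, a ficolin that binds bacterial sugars, had 347 UMIs in 217 members and 0 in the other macrophages. It was 14.0-fold higher with that 0 set to 3 counts (lower limit of the log2 ratio 3.504). Colec12, a collectin scavenger receptor, was likewise at 0 in the others and 7.72-fold higher with 3 counts in its place. Cd36, a fatty acid and scavenger receptor, had a log2 ratio of -0.62 and was found in 77.9% of sham blood endothelial cells after thinning.

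Among chemokines, 7 of 14 were at least 2-fold higher and 4 at least 2-fold lower, and the median of the list was 1.10. Ccl24 and Ccl8 are among the 7, and at 2 and 0 UMIs in the others they could pass only by being higher. Ccl24, an eosinophil attractant, had 736 UMIs in 364 members and 2 in the others (log2 ratio 5.48, 3.62 to 8.53). Ccl8, a monocyte attractant, had 390 UMIs in 149 members and 0 in the others. It was 15.8-fold higher with that 0 set to 3 counts (lower limit of the log2 ratio 3.673). Ccl7, Ccl12, Ccl6 and Ccl2 had log2 ratios of 2.89, 1.60, 1.36 and 1.34. The lower ones were Ccl5, Ccl3, Cxcl16 and Cxcl2, of which Cxcl2, a neutrophil chemokine, stood at 218 and 519 CPM. For Ccl5 the others' 30 UMIs lay in 2 cells, 26 of them in 1 cell.

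Complement genes were higher for 6 of 11 that passed and lower for 1, and the median of the list was 1.04. Vsig4 and C4b are among the 6, and at 0 and 1 UMIs in the others they could pass only by being higher. C4b, a central component of the classical pathway, had 264 UMIs in the members and 1 in the others, and C4a had 162 and 1. These 2 genes are near-identical copies, so the division of reads between them is uncertain. Cfp, which encodes properdin, was higher by 1.11 and C3ar1, the C3a receptor, by 1.04. Cd59a, an inhibitor of the membrane attack complex, was the lower one, at -1.54.

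Several genes of lipid mediators, iron handling and antibody transport were also higher. Ltc4s, the leukotriene C4 synthase, had a log2 ratio of 4.02 (2.79 to 5.64), with 668 and 5 UMIs. Hpgds, a prostaglandin D2 synthase, had 1.18 and Alox5, the 5-lipoxygenase, 1.36. Fcgrt, the neonatal Fc receptor, stood at 436 against 98.5 CPM, a log2 ratio of 2.14 (1.54 to 2.83). Slc40a1, the iron exporter ferroportin, had 101 UMIs in 73 members and 0 in the others, and was 4.08-fold higher with that 0 set to 3 counts. Blvrb, a heme breakdown enzyme, had 1.78 and Trf, transferrin, 1.06. Iron and heme genes were at least 2-fold higher for 4 of 12, eicosanoid genes for 4 of 12, with 1 lower, and Fc receptors for 2 of 7, with Fcgr4 at -2.10. Slc40a1 is among the 4 iron and heme genes, where its place was fixed by its 0 in the others. The other named genes on the higher side were Chp2 and Usp24, with log2 ratios of 4.89 and 2.19, the latter with a 0 set to 3 counts.

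Transcription factor genes of the macrophage lineage were mostly level. Of 20 that passed, 5 were at least 2-fold higher and 2 at least 2-fold lower. Maf stood at 3117 against 1088 CPM (log2 ratio 1.52, 1.33 to 1.71). Spi1, which encodes PU.1, had -0.23 (-0.57 to 0.14). Klf2 and Klf4 had 1.75 and 1.33, and these 2 were found in 24.8 and 34.5% of sham blood endothelial cells after thinning. Id2 and Id3 had -1.95 and -1.28.

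All 8 MHC class II genes that passed were at least 2-fold lower in the members, and the median log2 ratio of the list was -1.70. H2-Eb1 stood at 2012 against 8025 CPM, H2-Ab1 at 2407 against 8835 CPM and Cd74 at 4251 against 13458 CPM (-1.66, -1.72 to -1.60). Ccr2 had a log2 ratio of -3.84 (105 against 1513 CPM) and was found in 47 of 1134 members (4.15%) and 66 of 147 others (44.9%), or 2.47 and 33.3% after thinning. Monocyte markers were at least 2-fold lower for 4 of 5 that passed. Among inflammatory mediators 4 of 8 were lower and none higher, with Il1b at 97.7 against 721 CPM (-2.88, -3.20 to -2.57) and Tnf at -1.06. Cx3cr1, the fractalkine receptor, had -2.11 and Lgals3, galectin-3, -2.86. Mmp12, the macrophage elastase, had -4.56, but its 27 UMIs lay in 4 members and 37 of the 77 in the others lay in 1 cell. The other named genes on the lower side, Rgs1, Plac8, Zmynd15, Slamf7, Klra2, Gngt2 and Cytip, had log2 ratios of -3.61, -3.59, -3.10, -3.10, -3.39, -2.67 and -2.70. Blood endothelial markers were at 2569 CPM in the other macrophages and 1346 CPM in the members, and their part in the differences was not tested.

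Of the remaining lists, growth factor genes were higher for 4 of 7, with a median of 1.43. These were Igf1, Gas6, Grn (progranulin) and Bmp2. Cathepsin and lysosome genes were higher for 5 of 18 and lower for 1. The lists for dying-cell uptake (5 higher and 1 lower of 15), alternative activation (4 and 2 of 9), matrix and hyaluronan (1 and 4 of 9), chemoattractant receptors (3 and 3 of 10), immediate early genes (2 and 2 of 17), interferon response (1 and 1 of 13) and glycolysis (0 and 2 of 13) had medians between -0.36 and 0.45. Lipid-associated macrophage genes were higher for 2 and lower for 3 of 11, and the median of the list was -0.01. Abca1, the cholesterol exporter, had a log2 ratio of 2.08, and Axl, a receptor of Gas6, -1.40.

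**Figure D2:**
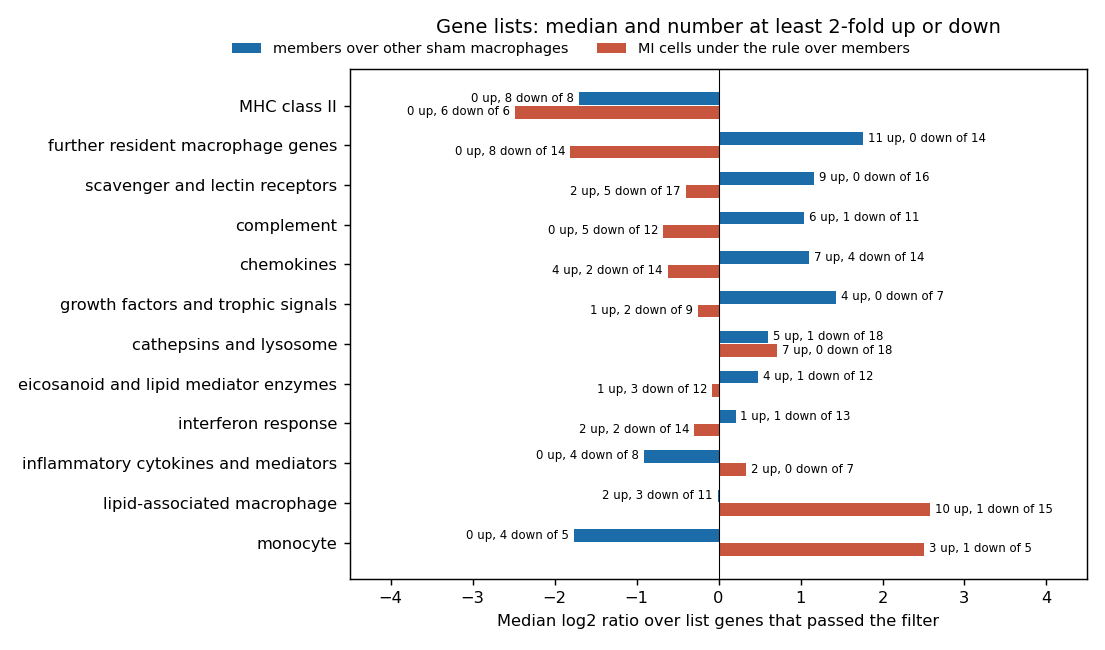
Median log2 ratio (horizontal axis) over the genes of each list that passed the filter, for members over other sham macrophages and for MI cells under the rule over members. The text beside each bar gives how many genes were at least 2-fold up or down. The MHC class II bars lie at -1.70 and -2.49 and the further resident macrophage genes at 1.77 and -1.81.

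MHC class II varied widely among the members. Transcripts of the 10 MHC class II genes made up a median of 0.436% of a member's UMIs, from 0 in 247 members to 7.74% in the highest, with 1.91% at the 75th percentile and 3.63% at the 90th. In the other sham macrophages the median was 3.99%. The distribution was continuous, so bins of it are ranges and not types. The members were divided into 4 bins of 284, 284, 283 and 283 cells from the lowest to the highest share, with median depths of 1461.5, 1509, 1395 and 1335 UMIs.

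**Figure D3:**
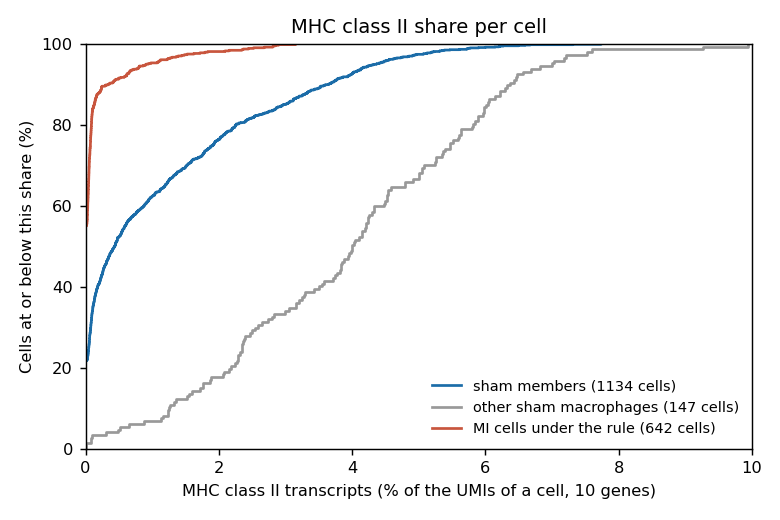
Cumulative share of cells (vertical axis, %) at or below each MHC class II share of a cell's UMIs (horizontal axis, %) in the members, the other sham macrophages and the MI cells under the rule. The medians are 0.436% in the members and 3.99% in the other sham macrophages, and 55.0% of the MI cells have no such UMI.

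Across the 4 bins, from lowest to highest, Lyve1 stood at 2526, 2152, 1681 and 1073 CPM. The other rule genes differed less, with F13a1 at 3766 CPM in the lowest and 2424 in the highest bin, Cbr2 at 1661 and 1085, and Folr2 at 955 and 584. Cd163 was level, at 1208 and 1345 CPM (log2 ratio of highest over lowest bin 0.15, -0.01 to 0.32). Outside the rule, Fcna stood at 281 CPM in the lowest and 56.7 in the highest bin (-2.31, -3.00 to -1.68), Vsig4 at 75.9 and 9.45, and Slc40a1 at 115 and 14.2. Ltc4s stood at 492 and 196 CPM and Gas6 at 871 and 437 CPM. Timd4 was at 137, 142.5, 138.5 and 75.6 CPM, level over the first 3 bins.

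Genes higher in the highest bin included Ccr2, Il1b and Cx3cr1. Ccr2 had 1 UMI in the lowest and 154 in the highest bin (log2 ratio 7.47, 4.97 to 12.79). Il1b had 4 and 118 UMIs and Cx3cr1 33 and 128. Mmp13, a collagenase, had 8 and 46 UMIs, and Plbd1, Cd52 and Fcgr4 had log2 ratios of 2.43, 1.90 and 2.85. Mmp12 had 1 and 26 UMIs, from 4 cells in all. Ly6c2, a classical monocyte marker, went the other way, with 31 and 11 UMIs (-1.29, -2.43 to -0.26), and it was found in 37.3% of sham blood endothelial cells after thinning. Mgl2 was higher by 0.78 (0.55 to 1.02) in the highest bin. Retnla stood at 771 CPM in the lowest and 1874 CPM in the highest bin (1.28, 1.10 to 1.46), or 1131 CPM in the highest bin without the single highest cell. The number of cells with Retnla went the other way, with 31 of 284 in the lowest and 24 of 283 in the highest bin.

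Ednrb, an endothelin receptor, and Emp1 had log2 ratios of -2.77 and -2.85 between the highest and the lowest bin, and their UMIs were spread over 160 and 124 members. Ccl21a, a lymphatic endothelial chemokine, and Npr3, a natriuretic peptide receptor, had -4.52 and -3.38 but rested on few cells: 2 members held 49 of 64 UMIs of Ccl21a, and 3 held 41 of 53 of Npr3. For C3, at -2.74, 1 member held 25 of 93 UMIs. Txnl4a had -4.32, from 23 UMIs in the lowest and 1 in the highest bin. Blood endothelial markers stood at 1074 CPM in the lowest and 624 CPM in the highest bin, and fibroblast markers at 996 and 466 CPM. Their part in these differences was not tested.

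**Figure D4:**
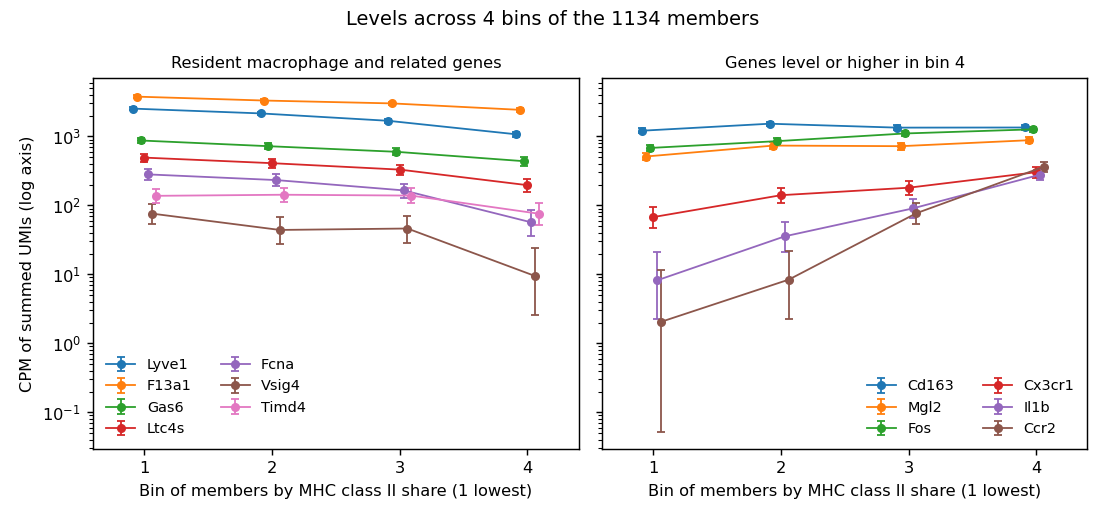
CPM (log axis) of selected genes in the 4 bins of the members by MHC class II share, with 95% Poisson intervals. Lyve1 goes from 2526 to 1073 CPM and Ccr2 from 2.05 to 364 CPM, while Cd163 stays between 1208 and 1525 CPM.

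After thinning, 64.9% of members with Timd4 and 63.8% of those without it held an MHC class II UMI, and the values for Retnla were 63.4 and 63.9%. All of these shares are descriptions over cells of 1 library. Of 28 members with Ccr2 after thinning, 27 held an MHC class II UMI. Lyve1 went the other way, with 55.1% of members with Lyve1 and 71.6% of those without it. Unlike Timd4 and Retnla, Lyve1 is a gene of the rule, so the selection of the members bears on this split. Retnla was found in 12.9% of members with Lyve1 and 5.34% of those without it. The 47 members with Ccr2 before thinning had 27678 CPM of MHC class II against 9999 in the rest, and Lyve1 at 1104 against 1929 CPM. Their Retnla was 5529 CPM, or 2206 CPM without the single highest cell, against 877 CPM in the rest. Members with Timd4 had Cx3cr1 at 55.5 against 197 CPM, Ccr2 at 39.6 against 122 CPM and Lyve1 at 2558 against 1713.5 CPM. Their median depth was 1701 against 1377 UMIs, and fibroblast markers stood at 1342.5 against 498 CPM in them.

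Members with few resident UMIs had more MHC class II, Ccr2 and Il1b. Members with 3 to 5 resident UMIs (208 cells, median depth 1119.5 UMIs), 6 to 11 (361 cells, 1209) and 12 or more (565 cells, 1705) had MHC class II at 22997, 13178.5 and 6886 CPM. Ccr2 stood at 277, 116 and 58.3 CPM and Il1b at 337.5, 74.1 and 50.0 CPM in the same order. These bins differ in depth as well as in the rule's own genes.

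The same rule was then applied to the MI library, to set the members beside the cells that meet it after infarction. It found 642 of 3403 macrophage-gated MI cells, or 18.9% (17.6 to 20.2%), against 78.0% in sham. Because the MI cells were deeper (median 2115.5 UMIs), the share after thinning is the closer comparison, and it was 2.94% (104 of 3537) against 53.8%. Fewer resident cells and more macrophages of other kinds cannot be told apart in shares. F13a1 carried the MI cells: 276 of 642 (43.0%) had no other resident gene, and F13a1 gave 63.9% of the UMIs of the 5 genes. Without F13a1, an alternative added after the data were seen, 162 MI cells (4.76%) and 984 sham cells (67.7%) met the rule. In the 642 cells Lyve1 was at 202 CPM and detected in 14.2%, and in the 162 cells found without F13a1 it was at 769 CPM and detected in 44.4%. The log2 ratio of Lyve1 to the matching sham cells was -3.23 and, without F13a1, -1.45. After thinning, Ccr2 was detected in 17.3% of the 642 cells and 2.47% of members.

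Of 5960 genes that passed, 349 were at least 2-fold higher in the MI cells (5.86%) and 576 at least 2-fold lower (9.66%), and the median log2 ratio was -0.09. The mitochondrial share of UMIs had a median of 8.57% in the MI cells and 5.20% in the members, and its part in these differences was not tested. The MI cells had more of genes linked to lipid handling and lysosomes, and far less MHC class II, Retnla and Mgl2.

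Lipid-associated macrophage genes were at least 2-fold higher for 10 of 15 and lower for 1 (Fabp4, also an endothelial gene), and the median of the list was 2.58. Spp1, Gpnmb, Syngr1 and Arg1 are among the 10 and had at most 6 UMIs in the members. They passed the filter through the MI cells only, so their place there was fixed, and the median rests in part on them. Spp1, which encodes osteopontin, had 6 UMIs in the members and 2667 CPM in the MI cells (log2 ratio 9.68, 8.56 to 11.12). Gpnmb and Syngr1 had 7.16 and 6.78, from 3 UMIs each in the members. Trem2, a lipid receptor, was at 647 against 108 CPM (2.58, 2.36 to 2.81). In the 1863 MI macrophages without resident genes Spp1 was at 1757, Gpnmb at 268 and Trem2 at 563 CPM. The whole list summed to 30418 CPM there, 35036 CPM in the MI cells under the rule and 16607 CPM in the members. High levels of these genes were thus not particular to the MI cells under the rule. Arg1, arginase, was at 0 in the members and 295-fold higher in the MI cells with that 0 set to 3 counts. Apoc2, Saa3, Marco and Lrg1 had 4.76, 5.92, 6.64 and 4.90, with 22 cells behind Marco and a 0 set to 3 counts for Lrg1. Cathepsin and lysosome genes were higher for 7 of 18 and lower for none, with Ctsd at 3.32. Fn1, Thbs1, Col1a1 and Lox had 5.22, 5.49, 4.72 and 6.58. After thinning these 4 were found in 14.2, 11.2, 12.2 and 2.65% of the MI cells and in 12.0, 5.24, 22.0 and 8.38% of 191 MI lymphocytes (median depth 1287 UMIs). For Col1a1 and Lox the lymphocytes had the larger share, and the part of free RNA in these ratios was not tested.

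Further resident macrophage genes were at least 2-fold lower for 8 of 14 in the MI cells and higher for none, and the median of the list was -1.81. Retnla, Mgl2 and Cmah, at 6.75, 4.7 and 6.07 CPM in the MI cells, passed the filter through the members only. Their place among the 8 was thus fixed. Without F13a1 in the rule the median was -0.61. Under that rule Fcna was higher in the MI cells, by 1.04 (0.75 to 1.32), against -0.47 (-0.72 to -0.21) under the full rule, and Vsig4 had 0.48 (-0.26 to 1.17) against -1.30. Timd4 was lower under both, at -1.79 and -3.44. Ccl8 was higher under both, at 2.55 and 1.63, and Igf1 near level, at -0.12 and -0.25.

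Retnla and Mgl2 were lower under both versions of the rule by larger ratios. Retnla had 10 UMIs in 3 MI cells (log2 ratio -7.36, -8.43 to -6.48) and Mgl2 had 7 UMIs against 1300 in the members (-7.22, -8.54 to -6.18). Without F13a1 these were -6.15 and -6.96. Both genes were also near 0 in the 1863 MI macrophages without resident genes, at 1 and 9 UMIs in all, against 365 and 158 UMIs in the 147 matching sham cells. Cmah, a sialic acid hydroxylase, had a log2 ratio of -5.24, and -3.46 without F13a1. Pla2g2d, a secreted phospholipase, had -5.56, and 0 UMIs in the MI cells found without F13a1. Bank1 and Lilra5 had -5.37 and -5.05, and Tnfrsf17 had 77 UMIs in the members and 0 in the MI cells. Btnl9, Mgll, Rgs5 and Tnnt2 were lower too, but the first 3 were found in 26.2, 47.8 and 18.0% of sham blood endothelial cells after thinning. Rgs5 is also a mural cell marker and Tnnt2 a cardiomyocyte gene. Blood endothelial markers summed to 123 CPM in the MI cells against 1346 CPM in the members, mural markers to 16.2 against 169 CPM and cardiomyocyte markers to 6.75 against 223 CPM. Their part in these 4 ratios was not tested.

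All 6 MHC class II genes that passed were at least 2-fold lower in the MI cells, and the median of the list was -2.49. Cd74 was at 275 against 4251 CPM (-3.95, -4.10 to -3.81). Summed MHC class II was 1486 CPM against 10894 in the members, and 956 against 9579 without F13a1 in the rule. In the 1863 MI macrophages without resident genes it was 9912 CPM, against 37550 CPM in the 147 matching sham cells. Monocyte markers were higher for 3 of 5 (Ccr2, Plac8 and Fn1) and lower for 1, with Ccr2 at 597 against 105 CPM (2.50, 2.28 to 2.74). Plac8 and Fn1, at 7.1 and 9.2 CPM in the members, passed the filter through the MI cells only, so their place was fixed. The lower one was Ly6c2, at 18.2 against 55.3 CPM (-1.60, -2.27 to -0.98), which sham blood endothelial cells also held. Complement genes were lower for 5 of 12, and none was at least 2-fold higher. Scavenger and lectin receptors were lower for 5 of 17 and higher for 2, while Mrc1 had -0.40 (-0.48 to -0.33). Chemokine genes were higher for 4 of 14 and lower for 2, with Ccl24 at -3.28 (-2.28 without F13a1) and Cxcl2 at 1.12. Among transcription factors Maf had -0.82 and Klf2 -3.31. Klf2 was also found in sham blood endothelial cells, whose markers were lower in the MI cells than in the members. Their part in its ratio was not tested. Hpgd, which inactivates prostaglandins, was at 66.1 CPM against 655 CPM (-3.31, -3.62 to -3.01). The lists for dying-cell uptake, iron and heme, alternative activation, growth factors, transcription factors, inflammatory mediators, immediate early genes, interferon response, eicosanoids, Fc receptors, matrix, glycolysis and chemoattractant receptors had medians from -0.86 (alternative activation) to 0.71 (glycolysis).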

How the data were processed

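Drop-seq libraries of 1 MI heart and 4 pooled sham hearts were analysed, with 12 PCR cycles in the library step per the labels' protocols. The authors deposited UMI counts, whole numbers by gene and barcode, as 1 table per library, and the submitters' processing notes name mm10 and Seurat. No aligner was given there. Every deposited barcode had at least 500 genes, so the tables had been filtered. The members and gene lists were chosen with earlier results of these data known.

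UMIs were summed over the cells of a group and given as CPM of the group's total, with exact Poisson intervals. Shares have Clopper-Pearson intervals and log2 ratios exact conditional binomial intervals. Genes entered with a mean of at least 20 CPM and 20 UMIs. A gene at 0 in a group was set to 3 counts there. A gene near 0 in 1 group could pass only through the other. Its place in a count of higher or lower genes was thus fixed. Of the genes outside the rule, the 12 highest and the 12 lowest by the interval bound nearest to 1 were named in each comparison, and 8 each way between MHC class II bins. Left out of the ranking were genes of mitochondria, ribosomal proteins, hemoglobin and the Y chromosome, Xist, and unnamed gene models. Further genes came from fixed lists, up to 5 per list by level or bound, and from the marker lists. A gene can stand in more than 1 list and is then counted in each. MI ratios used the 21745 genes in both tables. Shares of cells with a UMI are given as observed within a group and, between groups, also after thinning to 500 UMIs. Scrublet, run through scanpy 1.11.5, marked 340 sham and 131 MI cells as doublets, which were kept and, as an alternative, removed. Lymphocytes were cells with at least 3 T, NK or B marker UMIs. Gene positions are from GENCODE vM21 on GRCm38 and upstream sequences from RefSeq on GRCm38.p6. Python 3.11.15, numpy 2.4.6, scipy 1.17.1 and pandas 2.3.3 were used, and the ratio step was tested on simulated data. Some results are not reported here.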

Additional observations from a re-analysis of the deposited data

How the results depend on the processing

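The share of macrophage-gated cells under the rule moved with its terms. In sham it was 53.8% after thinning to 500 UMIs, 83.8% with at least 2 and 68.2% with at least 5 resident UMIs, and 67.7% without F13a1. In MI it was 2.94, 28.4, 8.64 and 4.76% under these settings and 17.5% with at most 10% mitochondrial UMIs. Genes at least 2-fold higher and lower in the members than in other sham macrophages numbered 173 and 147 with a mean of at least 50 CPM, 1159 and 2066 with no filter beyond 1 UMI in each group, and 249 and 201 against cells with at most 2 resident UMIs. Against those cells the median of the further resident genes was 1.40. For MI cells over members the counts were 181 and 249 at 50 CPM and 1239 and 2512 with no filter, and 534 were higher when the rule followed thinning. The MHC class II median for MI cells over members was -2.64 with macrophage genes at 0.8% of UMIs or more, -2.72 with the rule after thinning and -2.86 without F13a1. The further resident median was -0.64 after thinning and -0.61 without F13a1. The setting without F13a1 was chosen after seeing the data, and the cause of these shifts was not tested.

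For the 24 named genes of each comparison, all 240 and all 216 alternative values kept their direction, and 240 and 215 stayed at least 2-fold. Settings that change only the gene filter leave a gene's own ratio as it was, so those values could not differ. The named genes were also picked as the extremes of these same cells, so this tally is a description and no test of them. Of the list medians, 192 of 210 and 170 of 189 alternative values kept their sign. Limits are the 1 library per condition, the 4 hearts that cannot be separated in the sham pool, and depth: a gene with 0 UMIs in the 147 other sham macrophages could still be present at up to 13.4 CPM by the floor of 3 counts, or 16.5 CPM by the Poisson interval. Cells with few UMIs can fall short of 3 resident UMIs by sampling, and the resident share is therefore a share at this depth.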
